A study of Homo sapiens with 12 samples.

Results

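Semaphorins, their plexin receptors and the neuropilin co-receptors were followed in 2 melanoma cell lines treated with vemurafenib, an inhibitor of mutant BRAF kinase. With earlier results of these data known, the genes were chosen by symbol, as SEMA3A to SEMA7A, the plexins of subfamilies A to D, and NRP1 and NRP2. This gave 31 of the 23273 genes listed, with 20 semaphorins, 9 plexins and 2 neuropilins. COLO858 and MMACSF are established BRAF-mutant lines, and each received either DMSO, the vehicle, or 0.2 μM vemurafenib for 24 or 48 h. Each of the 6 groups had 2 replicates, which makes 12 libraries. The labels of the DMSO libraries carry no time and the methods tie them to neither 24 nor 48 h, so both drug times were set against the same DMSO libraries of the line and share them. The response of other melanoma lines was not measured here, and each library is a bulk culture, in which fewer cells of a type and less RNA per cell cannot be told apart.

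Semaphorins are ligands that were first known for steering growing axons and that also act on cell migration, adhesion and vessel growth. Class 3 members are secreted and mostly signal through a neuropilin, which binds the ligand, and a class A plexin, which carries the signal into the cell. Class 4, 5 and 6 members span the membrane and class 7 is anchored by lipid, and most of these bind plexins directly. Plexins carry an intracellular domain that acts on small GTPases of the RAS and RAP families, and melanocytes arise from the neural crest, whose migration class 3 semaphorins help to guide.

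Values are FPKM, the fragments of a gene scaled to transcript length and to the mapped total. Levels of different genes are set side by side on this scale only roughly. It is per length, but the values also varied with base composition between replicates, as given below. A gene counted as measured in a line where the mean of a group reached 1 FPKM, and a call of change needed a limma p under 0.01 on log2(FPKM + 1), two-sided and adjusted by the method of Benjamini and Hochberg. Changes are given as log2 differences on that scale, which understates the change of genes of low level. Statements that groups did not overlap describe 2 libraries against 2 and are no test, and the share of all genes without overlap was not computed. Nor was the share of all genes at an unadjusted p under 0.05, so counts at that level are a description only. NRP1 in COLO858 did not overlap between DMSO and 48 h at a log2 change of 0.05 (limma adjusted p = 0.864). Of the 31 members 26 were measured in COLO858 and 21 in MMACSF, of which 19 were measured in both. PLXNA4, SEMA4A and SEMA5B were under the minimum in both lines. PLXNA3, PLXND1, SEMA3E, SEMA3F, SEMA3G, SEMA4D and SEMA4G passed it in COLO858 only, and PLXNA2 and PLXNC1 in MMACSF only.

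Read depth is unknown. FPKM summed to between 670310 and 1013040 per COLO858 library, and to between 726083 and 856083 per MMACSF library. DUSP6, a feedback phosphatase of ERK signalling, was lower in drug in both lines, in COLO858 by log2 changes of -1.46 at 24 h and -0.93 at 48 h (limma adjusted p = 0.00286 and 0.0097). It fell by 1.66 and 1.80 in MMACSF (limma adjusted p = 0.00183 and 0.000981). Of 6 melanocytic markers all were present in MMACSF, whereas in COLO858 MLANA reached at most 0.725 FPKM and TYR at most 1.21 FPKM. Summed endothelial, leukocyte and keratinocyte markers reached at most 1.00 FPKM in any library, with CDH5, CD3E and KRT5 at 0 throughout COLO858. Among 4 fibroblast markers LUM reached 25.6 FPKM in COLO858 and 73.3 FPKM in MMACSF. COL3A1, COL1A1 and DCN reached 6.88, 1.54 and 0.225 FPKM in COLO858 and 0.0435, 0.237 and 3.26 FPKM in MMACSF. Summed over the 4 genes this list had a level of 5.63 and 8.62 FPKM in DMSO and of 23.3 and 33.8 FPKM at 48 h in COLO858, and levels of 54.8 and 76.4 and of 19.1 and 27.6 FPKM in MMACSF. Its part in the members' results was not tested.

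The members' replicates differed in a graded way that followed base composition. The log2 difference between replicate 2 and replicate 1, taken as the median of a line's groups, went from 0.43 down to -0.92 across the measured members of COLO858 and from 0.50 to -0.65 in MMACSF. It fell with the share of G + C in the transcript, with Pearson r = -0.913 and Spearman rho = -0.937 over 26 members in COLO858 and r = -0.943 and rho = -0.958 over 21 members in MMACSF. These points share their libraries, so the correlations are a description. SEMA3A, SEMA3C, SEMA3D, SEMA5A and SEMA6A, whose transcripts hold 36.7% to 48.8% G + C, were higher in replicate 2 in 6 of 6 groups. SEMA3B, SEMA6B and PLXNB2, at 63.9%, 67.9% and 63.1%, were higher in replicate 1 in 6 of 6 groups. The spread that the tests use therefore holds a component that is largest for the members of extreme composition. An alternative chosen after this was seen removed the part of each library that varies smoothly with G + C. With it the median difference between replicates of a member went from 0.27 to 0.36 down to 0.04 to 0.15, and its calls are given beside each count.

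**Figure D1:**
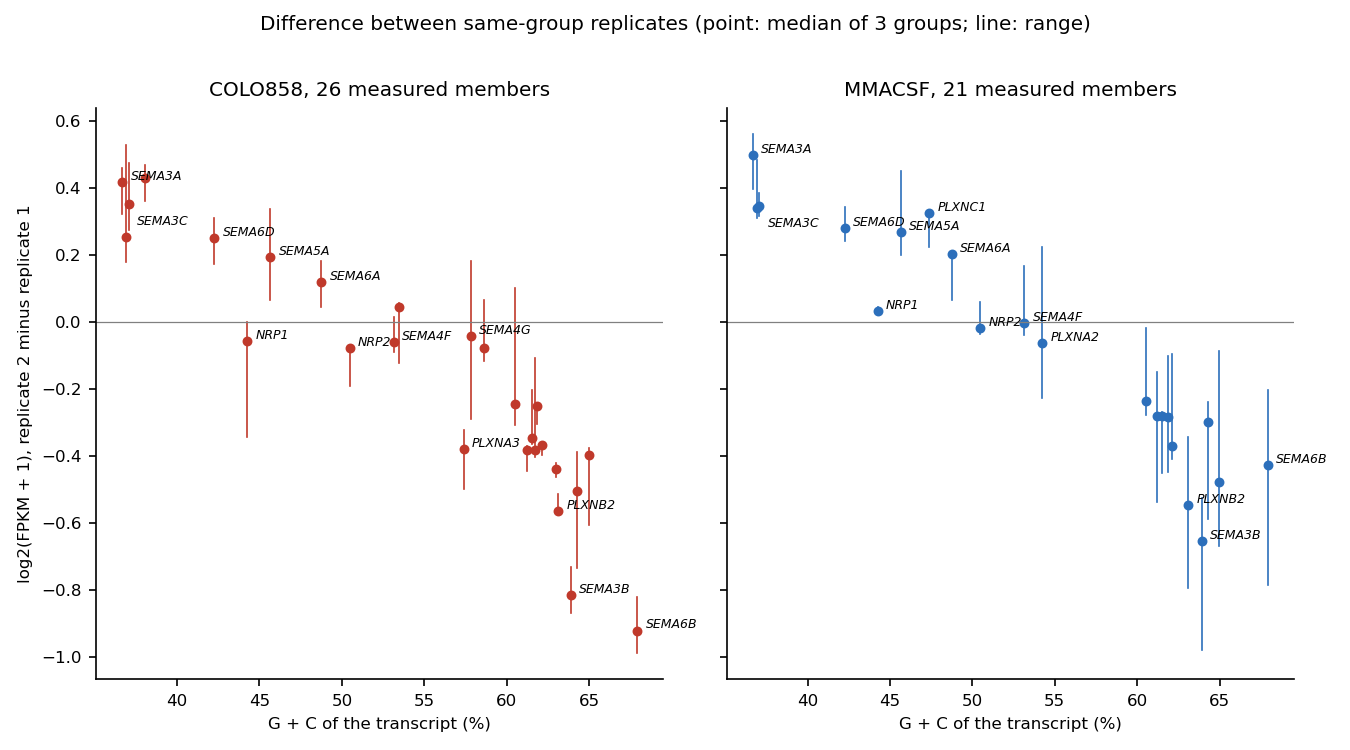
Log2 difference of FPKM + 1 between replicate 2 and replicate 1 of the same group (vertical axis) against the G + C of the transcript in percent (horizontal axis), for the measured members of COLO858 (left) and MMACSF (right). Points are medians of 3 groups and lines their range. Members low in G + C, such as SEMA3A, lie above 0 and members high in it, such as SEMA3B and SEMA6B, below.

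Sequences just before the start of the gene are shown for the 3 members with the largest called rises in COLO858 (SEMA3D, PLXNB3 and SEMA3E) and for PLXNB1, which rose in both lines. Each is the 250 bases upstream of a RefSeq start in build GRCh38.p14, read 5′ to 3′ on the gene's strand, with matches to any of 5 motifs in capitals. The motifs were TGANTCA (AP-1), CACGTG and CATGTG (E-boxes), CCGGAAGT (ETS) and GGAATG (TEAD), searched on both strands. SEMA3D lies at chr7:85187057-85187306 on the minus strand, PLXNB3 at chrX:153763999-153764248 on the plus strand, SEMA3E at chr7:83649140-83649389 on the minus strand and PLXNB1 at chr3:48429345-48429594 on the minus strand. SEMA3E and PLXNB1 have 2 listed starts each, and the one with a match is shown.
SEMA3D: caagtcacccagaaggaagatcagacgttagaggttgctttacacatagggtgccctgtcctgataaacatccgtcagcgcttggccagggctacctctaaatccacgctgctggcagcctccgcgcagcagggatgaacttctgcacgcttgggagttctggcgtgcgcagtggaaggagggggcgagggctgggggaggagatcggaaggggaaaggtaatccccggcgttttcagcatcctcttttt
PLXNB3: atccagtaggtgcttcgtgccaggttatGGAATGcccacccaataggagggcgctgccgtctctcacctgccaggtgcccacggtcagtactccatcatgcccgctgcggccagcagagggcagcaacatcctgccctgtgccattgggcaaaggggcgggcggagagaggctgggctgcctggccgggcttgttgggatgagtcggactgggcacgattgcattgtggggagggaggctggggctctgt
SEMA3E: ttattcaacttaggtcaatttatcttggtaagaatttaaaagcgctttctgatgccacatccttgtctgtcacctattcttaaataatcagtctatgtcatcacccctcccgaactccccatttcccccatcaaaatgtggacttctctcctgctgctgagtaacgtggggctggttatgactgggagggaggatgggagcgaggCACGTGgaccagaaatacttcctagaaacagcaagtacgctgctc
PLXNB1: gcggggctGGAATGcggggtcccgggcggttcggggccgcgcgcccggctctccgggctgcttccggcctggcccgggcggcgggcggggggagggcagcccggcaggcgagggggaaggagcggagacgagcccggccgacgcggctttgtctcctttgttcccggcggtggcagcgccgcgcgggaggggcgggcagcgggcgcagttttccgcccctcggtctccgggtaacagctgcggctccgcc
The SEMA3D window held no match. PLXNB3 and PLXNB1 each held 1 GGAATG and SEMA3E 1 CACGTG. Starts were matched for 27 of the 31 members. NRP1, SEMA3A, SEMA6A and SEMA6B were not matched. Over the 40 windows of measured members GGAATG was found in 5 (12.5%), against 11.9% of all 35116 promoters, and CACGTG in 3 (7.5%), against 6.34%. TGANTCA was found in 1 window (2.5%, against 6.57%), CATGTG in 3 (7.5%, against 9.42%) and CCGGAAGT in 0 (against 3.42%). A match is a run of letters, not a binding site.

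Levels in DMSO differed widely among members. In DMSO-treated COLO858 NRP2 had the highest level, 205 ± 7.80 FPKM (SD, n = 2), followed by PLXNB2 at 83.3 ± 21.0 FPKM. SEMA3C, SEMA6B, SEMA3F, SEMA4C and SEMA3B followed at group means of 20.5 to 30.9 FPKM, and the replicates of these members overlapped with those of their neighbours in this order. In DMSO-treated MMACSF NRP2 led at 33.2 ± 0.308 FPKM, and PLXNB2, PLXNA1, SEMA6A, PLXNC1, SEMA5A and SEMA3C lay between 19.9 and 26.3 FPKM. The 2 tables may have been scaled separately, so levels are set side by side here and not tested between lines. SEMA3F, SEMA3E, PLXNA3 and PLXND1 were under 0.31 FPKM in all MMACSF libraries and PLXNC1 under 0.29 FPKM in all COLO858 libraries.

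**Figure D2:**
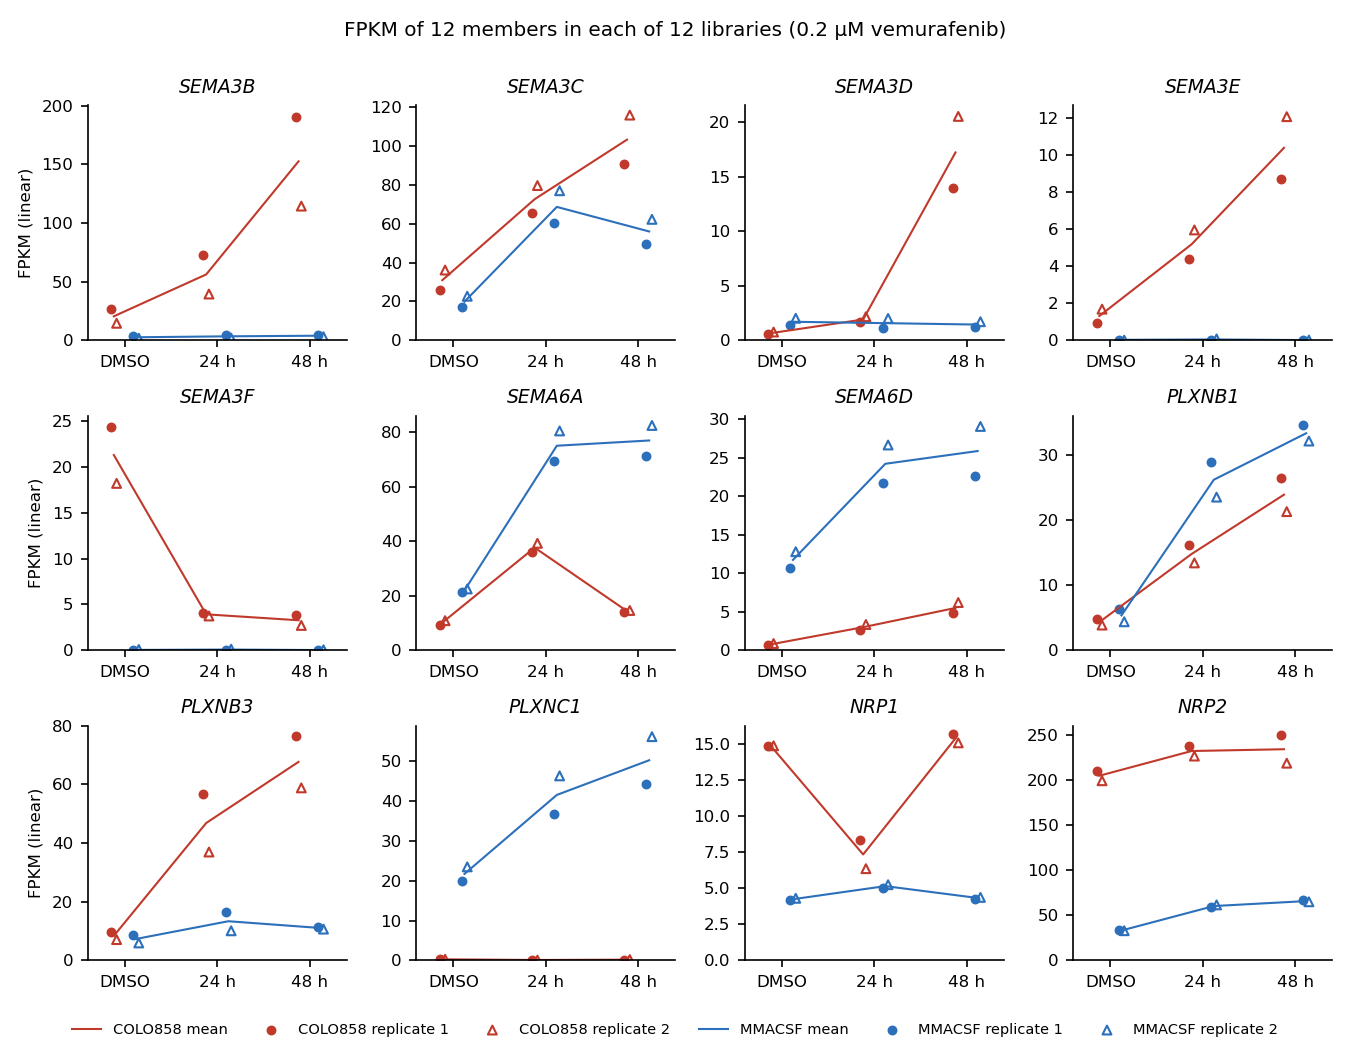
FPKM of 12 members (vertical axes, linear and starting at 0, 1 scale per panel) in DMSO and after 24 and 48 h of vemurafenib, with COLO858 in red and MMACSF in blue. Filled circles are replicate 1, open triangles replicate 2, and lines join the means. SEMA3F drops after DMSO in COLO858 and lies near 0 in MMACSF, PLXNC1 lies near 0 in COLO858, and NRP1 is lowest at 24 h in COLO858.

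In COLO858 more members rose than fell. At 24 h 3 of 26 measured members rose and 1 fell, where 9.82% of the 12696 genes tested were called (4.11% rose and 5.71% fell). At 48 h 6 rose and 1 fell, where 9.47% were called (4.74% rose and 4.73% fell). SEMA3D and SEMA6D, with DMSO means of 0.666 and 0.788 FPKM, passed the minimum only through drug groups. SEMA3G, with 0.599 FPKM in DMSO, passed it only through 48 h. The median log2 change over the measured members was 0.54 at 24 h and 0.55 at 48 h, against 0.06 and -0.01 over all genes tested. The number of calls depends on how the spread is estimated. With the G + C trend removed 14 rose and 2 fell at 24 h, and 13 rose and 2 fell at 48 h, but 40.0% and 40.8% of all genes with a G + C value were then called. PLXNA1 and SEMA4B at 24 h were among the members gained. Leaving out any 1 of the 4 libraries compared left 0 called members at 24 h, with 0.898% to 1.21% of all genes then called. At 48 h it left 0 without DMSO replicate 1 or 2 and 1, SEMA3D, without 48 h replicate 1 or 2, with 1.08% to 1.19% of all genes called.

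In MMACSF 4 of 21 measured members rose at 24 h and 0 fell, where 5.83% of the 12599 genes tested were called (2.22% rose and 3.60% fell). At 48 h 4 rose and 0 fell, where 8.83% were called (3.42% rose and 5.41% fell). NRP2, PLXNB1, SEMA3C and SEMA6A rose at both times. Between 24 and 48 h limma called 0 members, with 1 at an unadjusted p under 0.05, where 0.222% of all genes were called (0.111% rose and 0.111% fell). The median log2 change of the measured members was 0.73 and 0.55 at 24 and 48 h, against 0.07 and 0.06 over all genes tested. With the G + C trend removed 11 rose and 1 fell at 24 h and 9 rose and 1 fell at 48 h, with 24.9% and 29.4% of all genes called. Between 24 and 48 h the correction left 0 called members, with 0.542% of all genes called. Leaving out any 1 of the 4 libraries left 0 called members at 24 h, with 0.458% to 0.571% of all genes then called. At 48 h it left PLXNB1 without DMSO replicate 1 and 0 without DMSO replicate 2 or either 48 h replicate, with 0.905% to 1.07% of all genes called.

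**Figure D3:**
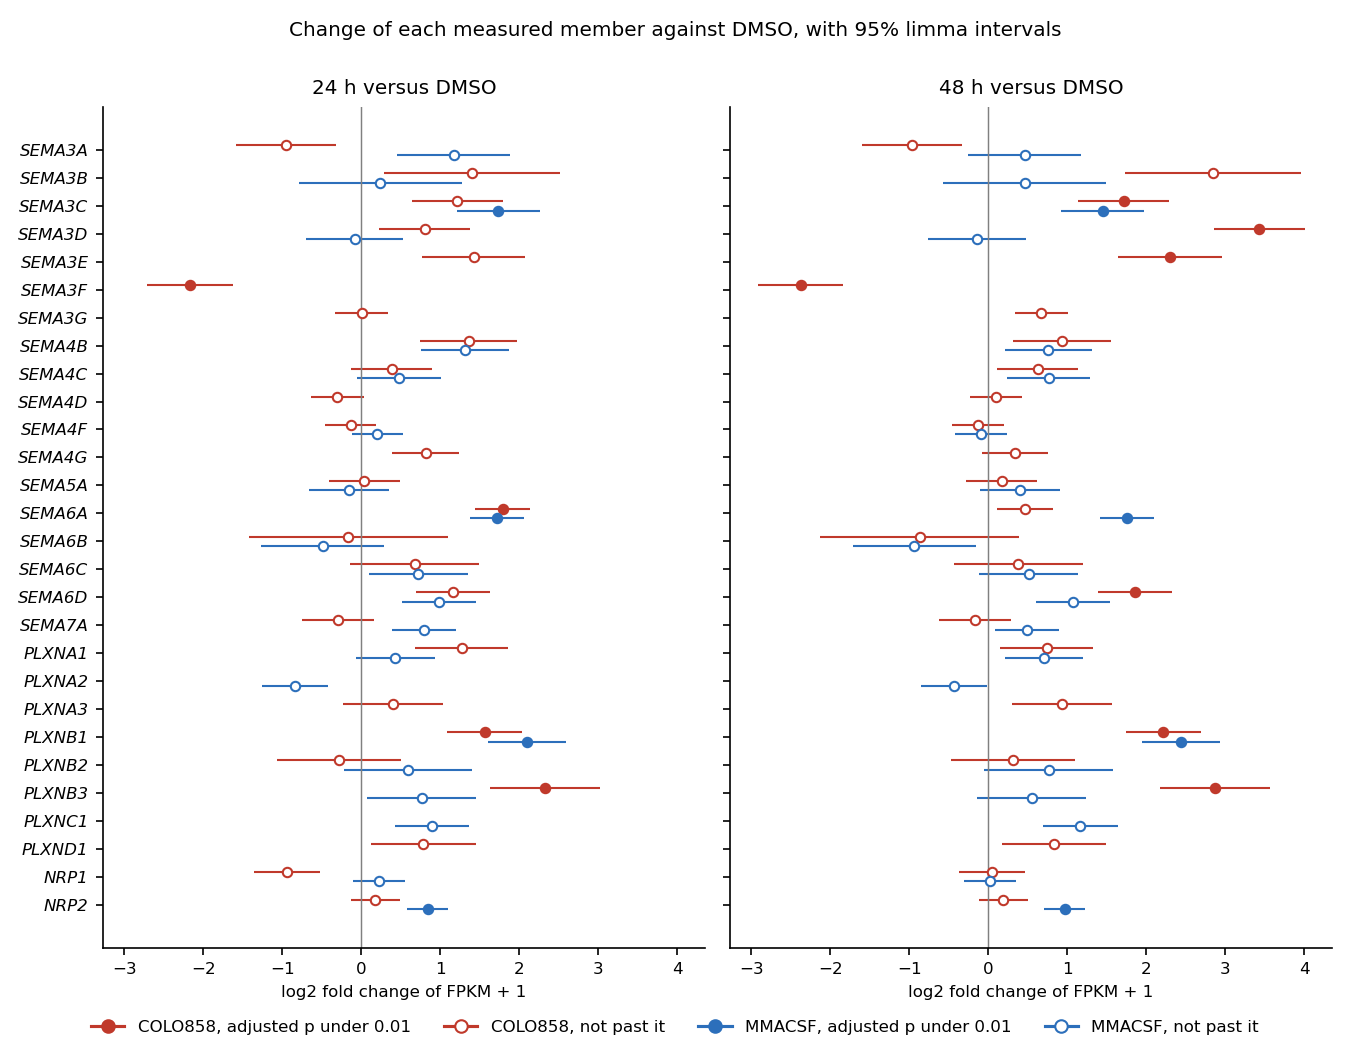
Log2 change of FPKM + 1 from DMSO at 24 and 48 h for each measured member, in COLO858 and MMACSF. Points are limma estimates, filled where the adjusted p was under 0.01, and bars are 95% intervals. The rise of SEMA3D by 3.43 at 48 h in COLO858 and the fall of SEMA3F are the extremes.

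In COLO858, but not in MMACSF, the class 3 semaphorins showed the widest spread of changes from DMSO. SEMA3D, which guides neural crest and endothelial cells, had 0.562 and 0.769 FPKM in the DMSO replicates of COLO858, 1.66 and 2.17 FPKM at 24 h, and 13.9 and 20.5 FPKM at 48 h. Values in the 3 groups did not overlap. The rise at 48 h was 3.43 ± 0.23 on the log2 scale (SE, limma adjusted p = 0.00118), and the change at 24 h did not pass (0.81, limma adjusted p = 0.055). The ratio of mean FPKM at 48 h was 25.9, over a DMSO mean of 0.666 FPKM that lay under the minimum. SEMA3D was also the only member called between 24 and 48 h in COLO858, where 1.38% of all genes were called (1.17% rose and 0.213% fell), with a rise of 2.63 ± 0.23 (limma adjusted p = 0.00718). This call was lost without any 1 of the 4 libraries compared, with 0.228% to 0.339% of all genes then called, and also with no minimum level and with only the groups compared. With the G + C trend removed 8 members rose and 3 fell over this interval, with 14.4% of all genes called. In MMACSF SEMA3D lay between 1.15 and 2.03 FPKM in all 6 libraries with overlapping groups.

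SEMA3E, which signals through PLXND1 without a neuropilin, had 0.942 and 1.69 FPKM in DMSO, 4.42 and 5.96 FPKM at 24 h and 8.71 and 12.1 FPKM at 48 h in COLO858. The groups did not overlap, and the change passed at 48 h (2.30 ± 0.26, limma adjusted p = 0.00457) and missed at 24 h (1.43, limma adjusted p = 0.0162). PLXND1 had 17.4 and 12.8 FPKM in DMSO and 32.3 and 23.2 FPKM at 48 h, with a log2 change of 0.83 (limma adjusted p = 0.0741). The PLXND1 change was not called, but with the G + C trend removed it was 0.92 with a limma adjusted p of 0.000227. Of all genes 40.8% were then called.

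SEMA3C, a ligand of NRP1 and NRP2, was measured in both lines. In COLO858 it had 25.7 and 36.1 FPKM in DMSO, 65.5 and 79.5 FPKM at 24 h and 90.5 and 116 FPKM at 48 h, and in MMACSF 17.1 and 22.7, 60.3 and 76.8, and 49.7 and 62.2 FPKM. All drug libraries lay above the DMSO libraries of their line. The rise was called in COLO858 at 48 h (1.71 ± 0.23, limma adjusted p = 0.00715) but not at 24 h (1.22, limma adjusted p = 0.018), and in MMACSF at 24 h (1.74 ± 0.21, limma adjusted p = 0.00671) and 48 h (1.45 ± 0.21, limma adjusted p = 0.00861). The 3 calls were lost with no minimum level (limma adjusted p = 0.0107, 0.0106 and 0.0129) and with only the groups compared (limma adjusted p = 0.015, 0.0144 and 0.0137), and the call in MMACSF at 48 h also without the mean-variance trend (limma adjusted p = 0.0105).

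SEMA3F, a ligand of NRP2 studied as a tumour suppressor, went the other way. Its FPKM in COLO858 was 24.3 and 18.2 in DMSO, 4.11 and 3.75 at 24 h and 3.84 and 2.72 at 48 h. Every drug library lay below both DMSO libraries. SEMA3F fell by 2.16 ± 0.22 at 24 h (limma adjusted p = 0.00315) and by 2.38 ± 0.22 at 48 h (limma adjusted p = 0.0026), to a mean 5.41 and 6.48 times lower.

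SEMA3B, another secreted ligand studied as a tumour suppressor, is named here after its values were seen, since it missed the threshold narrowly. It had 26.5 and 14.6 FPKM in DMSO, 72.9 and 39.5 FPKM at 24 h and 191 and 114 FPKM at 48 h in COLO858, always higher in replicate 1. The groups did not overlap and the ratio of means at 48 h was 7.43, but the change of 2.84 ± 0.44 gave an adjusted p of 0.0107 in limma. With the G + C trend removed it was 2.95 with a limma adjusted p of 0.000264, where 40.8% of all genes were called. In MMACSF SEMA3B stayed between 1.86 and 4.96 FPKM. SEMA3F and SEMA3B lie 78.5 kb apart on the same strand of chromosome 3 (GRCh37; SEMA3F at chr3:50192478-50226508 and SEMA3B at chr3:50304990-50314977), and their log2 changes had opposite signs in COLO858, the SEMA3B change not being called.

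SEMA3A, a repellent that acts through NRP1, had 10.8 and 15.2 FPKM in DMSO and 5.12 and 7.18 FPKM at 48 h in COLO858, a log2 change of -0.97 (limma adjusted p = 0.0435). In MMACSF it had 4.23 and 6.39 FPKM in DMSO and 10.5 and 16.0 FPKM at 24 h, a log2 change of 1.17 (limma adjusted p = 0.0414). Neither was called, but with the G + C trend removed both passed, at -0.97 in COLO858 and 1.10 in MMACSF (limma adjusted p = 0.000207 and 0.00165). Of all genes 40.8% and 24.9% were then called in these comparisons. SEMA3E, SEMA3A and SEMA3D sit in this order on the minus strand of chromosome 7, with gaps of 307 and 503 kb, and the middle gene had the opposite sign of change in COLO858. SEMA3G reached 1.61 FPKM at most.

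Class 3 FPKM summed to 88.3 ± 1.66 in DMSO, 147 ± 11.3 at 24 h and 294 ± 28.5 at 48 h (COLO858), and to 29.8 ± 4.76, 87.2 ± 14.2 and 69.2 ± 9.68 (MMACSF) (SD, n = 2). The make-up of this sum shifted in COLO858. SEMA3B was 23.2% of it in DMSO, 38.3% at 24 h and 51.8% at 48 h, and SEMA3F 24.1%, 2.68% and 1.11%. SEMA3C was 35.0% in DMSO and at 48 h, but 49.5% at 24 h. These are shares of group means, and they differed between replicates, since SEMA3B was higher in replicate 1 and SEMA3C in replicate 2 in every group. In MMACSF SEMA3C alone made up 66.8% in DMSO and 80.9% at 48 h.

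**Figure D4:**
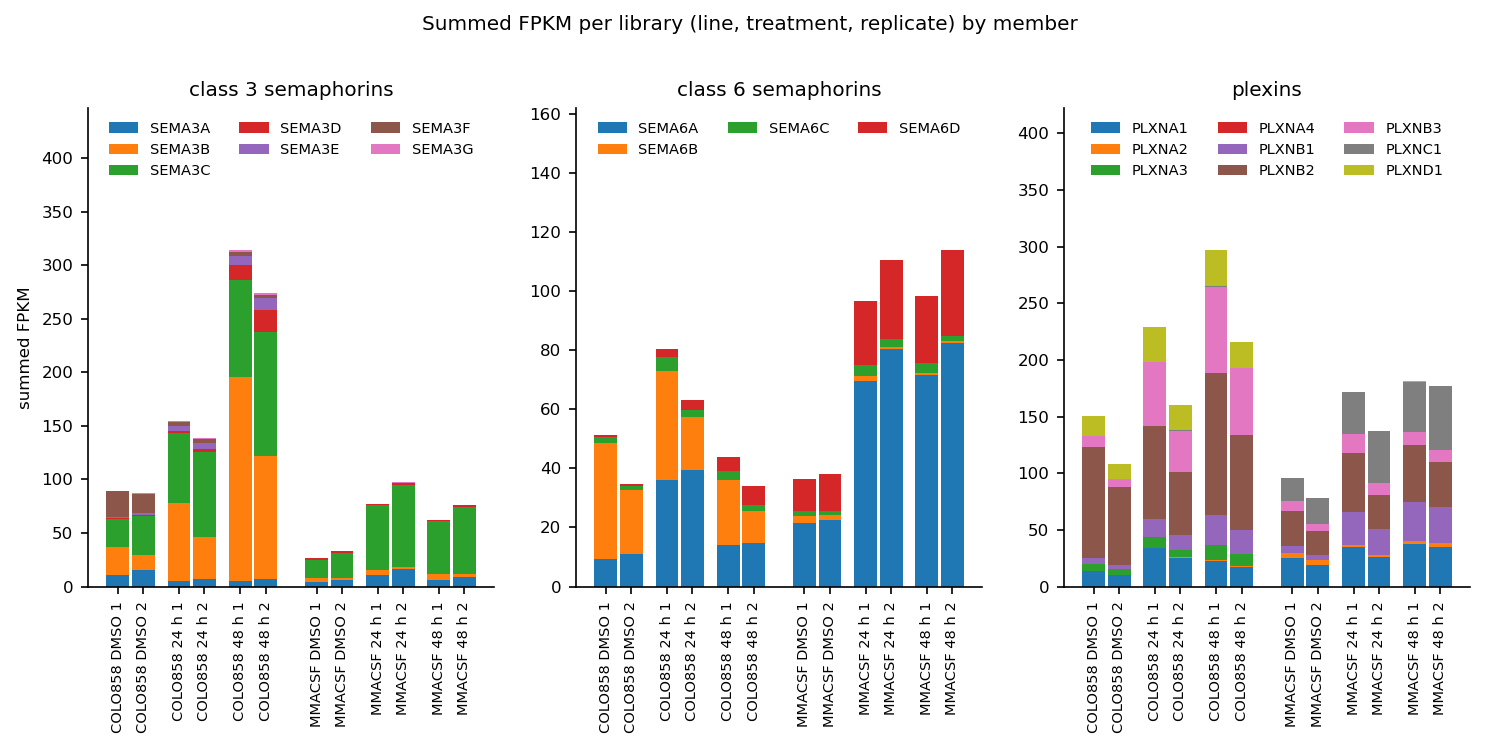
Summed FPKM of the class 3 semaphorins (left), class 6 semaphorins (middle) and plexins (right) in each of the 12 libraries, with a colour per member. Bars start at 0 and have no error, each being 1 library. SEMA3B and SEMA3C take up most of the growth of class 3 in COLO858, and SEMA6A that of class 6 in MMACSF.

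Among the class 6 semaphorins, which act as ligands and as receptors for class A plexins, SEMA6A rose in both lines at 24 h. In COLO858 it had 9.49 and 10.9 FPKM in DMSO, 36.1 and 39.3 FPKM at 24 h and 14.2 and 14.7 FPKM at 48 h. In MMACSF it had 21.5 and 22.6 FPKM in DMSO, 69.7 and 80.5 FPKM at 24 h and 71.5 and 82.5 FPKM at 48 h. In COLO858 the 48 h libraries lay between those of DMSO and 24 h, and in MMACSF those of both drug times lay well above DMSO. SEMA6A rose by 1.79 ± 0.14 at 24 h in COLO858 (limma adjusted p = 0.00171), with 0.46 at 48 h (limma adjusted p = 0.0656). The change between 24 and 48 h missed the threshold (-1.33, limma adjusted p = 0.0105). In MMACSF it rose by 1.72 ± 0.13 and 1.76 ± 0.13 (limma adjusted p = 0.00226 and 0.00157).

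SEMA6D, a ligand of PLXNA1, had 0.680 and 0.897 FPKM in DMSO, 2.67 and 3.37 FPKM at 24 h and 4.82 and 6.22 FPKM at 48 h in COLO858, with no overlap. The rise was called at 48 h (1.86 ± 0.19, limma adjusted p = 0.00335) and missed at 24 h (1.16, limma adjusted p = 0.0112). The DMSO mean of 0.788 FPKM lay under the minimum, which SEMA6D passed in COLO858 only through drug groups. In MMACSF it had 10.7 and 12.8 FPKM in DMSO and 22.7 and 29.1 FPKM at 48 h, a log2 change of 1.07 (limma adjusted p = 0.0146). SEMA6B was not called in either line, with 39.0 and 21.6 FPKM in DMSO and 21.7 and 11.0 FPKM at 48 h in COLO858. It made up 70.4% of class 6 FPKM in DMSO and 42.1% at 48 h there. SEMA6C was at 1.40 to 4.67 FPKM in COLO858 and 1.29 to 3.57 FPKM in MMACSF, with log2 changes of 0.38 to 0.73 from DMSO and no call.

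Classes 4, 5 and 7 had no called member in any comparison. SEMA4B, a transmembrane ligand, had 10.2 and 7.27 FPKM in DMSO and 27.3 and 20.7 FPKM at 24 h in COLO858, and 8.24 and 6.60 and then 24.1 and 16.3 FPKM in MMACSF. The log2 changes at 24 h were 1.36 and 1.32 (limma adjusted p = 0.016 and 0.0156). Drug libraries lay above DMSO libraries in both lines. SEMA4C, SEMA4F and SEMA5A had log2 changes of at most 0.76 from DMSO. SEMA7A, a lipid-anchored ligand of PLXNC1, had 7.65 and 7.55 FPKM in DMSO and 15.2 and 12.8 FPKM at 24 h in MMACSF (0.80, limma adjusted p = 0.026). SEMA4G shares 1215 exon bases with MRPL43 on the opposite strand, which reaches 47.2 FPKM in COLO858, and the strand setting of the counting is not given in the sources used here.

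Of the plexins, PLXNB1 rose in both lines. PLXNB1 is the receptor of SEMA4D, which itself was at most 1.33 FPKM in COLO858 and 0.689 FPKM in MMACSF. Its FPKM in COLO858 was 4.80 and 3.90 in DMSO, 16.2 and 13.5 at 24 h and 26.6 and 21.3 at 48 h, and in MMACSF 6.36 and 4.40, 28.9 and 23.6, and 34.6 and 32.2. All drug libraries were above the DMSO libraries. The rise was 1.57 ± 0.19 and 2.22 ± 0.19 in COLO858 (limma adjusted p = 0.00512 and 0.00216), and 2.10 ± 0.20 and 2.45 ± 0.20 in MMACSF (limma adjusted p = 0.00357 and 0.00184). The calls at 24 h were lost with only the groups compared (limma adjusted p = 0.0112 in COLO858 and 0.0109 in MMACSF).

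PLXNB3, the receptor of SEMA5A, had 9.67 and 7.10 FPKM in DMSO, 56.8 and 37.0 FPKM at 24 h and 76.6 and 58.8 FPKM at 48 h in COLO858, with no overlap between DMSO and drug. It rose by 2.33 ± 0.28 (limma adjusted p = 0.0048) and 2.87 ± 0.28 (limma adjusted p = 0.00303), which is 5.59 and 8.08 times in mean FPKM. In MMACSF the libraries held 8.68 and 5.96 FPKM in DMSO and 11.4 and 10.7 FPKM at 48 h, a log2 change of 0.55 (limma adjusted p = 0.202). PLXNB3 shares 1432 exon bases with SRPK3 on the same strand, whose level was at most 1.35 FPKM in COLO858. SEMA5A, the ligand, was at 2.35 to 3.24 FPKM in COLO858 and 15.9 to 30.8 FPKM in MMACSF.

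The other plexins were not called in either line. PLXNA1, a co-receptor of class 3 ligands, had 13.3 and 10.1 FPKM in DMSO and 34.0 and 25.6 FPKM at 24 h in COLO858 (1.27, limma adjusted p = 0.0168), and PLXNC1 19.9 and 23.5 FPKM in DMSO and 44.3 and 56.1 FPKM at 48 h in MMACSF (1.17, limma adjusted p = 0.0114). PLXNA3 had 6.60 and 4.85 FPKM in DMSO and 13.3 and 10.4 FPKM at 48 h in COLO858 (0.94, limma adjusted p = 0.0477), with no overlap. PLXNA2 had 4.23 and 4.01 FPKM in DMSO and 2.11 and 1.66 FPKM at 24 h in MMACSF (-0.83, limma adjusted p = 0.0253), also with no overlap. PLXNB2, the plexin with the highest group means in COLO858, had 98.1 and 68.4 FPKM in DMSO and 125 and 84.0 FPKM at 48 h there, with overlapping values. Plexin FPKM in COLO858 summed to 129 ± 30.2 in DMSO and 257 ± 57.5 at 48 h. The sums in MMACSF were 87.1 ± 12.3 and 179 ± 2.84 (SD, n = 2). PLXNB2 held 64.4% of the sum in DMSO and 40.7% at 48 h in COLO858, and PLXNB3 6.49% and 26.4%.

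Of the neuropilins, NRP2 rose in MMACSF and NRP1 was called in neither line. NRP2, co-receptor of SEMA3F and SEMA3C and of VEGF-C, had 33.4 and 32.9 FPKM in DMSO, 59.0 and 61.6 FPKM at 24 h and 66.6 and 65.0 FPKM at 48 h in MMACSF. It rose by 0.84 ± 0.10 and 0.97 ± 0.10 (limma adjusted p = 0.00685 and 0.00396), and drug libraries did not overlap with DMSO. With only the groups compared both calls were lost (limma adjusted p = 0.0252 and 0.0106), and the call at 24 h also without the mean-variance trend (limma adjusted p = 0.0106). In COLO858 NRP2 lay between 199 and 250 FPKM in all libraries, with log2 changes of 0.18 and 0.19 (limma adjusted p = 0.321 and 0.305). NRP1, co-receptor of SEMA3A and VEGF-A, had 14.9 and 14.9 FPKM in DMSO, 8.35 and 6.37 FPKM at 24 h and 15.7 and 15.1 FPKM at 48 h in COLO858. The lower level at 24 h did not pass the test within the line (-0.94, limma adjusted p = 0.0148). In MMACSF NRP1 stayed between 4.19 and 5.26 FPKM.

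The difference between the lines in the change from DMSO was tested as COLO858 minus MMACSF over the 12 libraries, with 28 members and 13595 genes. At 24 h 2 members had a lower change in COLO858 and 0 a higher one, where 3.71% of all genes were called (1.78% higher and 1.93% lower). At 48 h 3 were higher and 4 lower, where 7.48% were called (4.19% higher and 3.30% lower). Of the members called, SEMA3F at both times and SEMA3E and PLXNC1 at 48 h were measured in 1 line only. Between 24 and 48 h 2 were higher and 1 lower, where 2.96% were called (2.46% higher and 0.508% lower). With the G + C trend removed 5 were higher and 6 lower at 24 h, 7 and 5 at 48 h, and 6 and 2 between 24 and 48 h, with 15.0%, 21.6% and 11.1% of all genes called.

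At 48 h the members with a more positive change in COLO858 were SEMA3D (3.57 ± 0.34, limma adjusted p = 0.000366), SEMA3E (2.32 ± 0.29, limma adjusted p = 0.00123) and PLXNB3 (2.32 ± 0.42, limma adjusted p = 0.00786). Those with a more negative change were SEMA3F (-2.36 ± 0.25, limma adjusted p = 0.000553), SEMA6A (-1.29 ± 0.17, limma adjusted p = 0.0018), PLXNC1 (-1.27 ± 0.23, limma adjusted p = 0.00737) and NRP2 (-0.78 ± 0.13, limma adjusted p = 0.00568). SEMA3E, SEMA3F and PLXNC1 entered this test only through the line where they are expressed. In the other line they lay near 0, where log2(FPKM + 1) can hardly move, so their differences restate the change in 1 line and are no measure of unlike response. At 24 h SEMA3F differed by -2.22 ± 0.25 (limma adjusted p = 0.00151) and NRP1 by -1.17 ± 0.18 (limma adjusted p = 0.00597). Between 24 and 48 h NRP1 differed by 1.19 ± 0.18 (limma adjusted p = 0.00637). Both NRP1 calls were lost with the G + C trend removed (limma adjusted p = 0.0138 and 0.0143). SEMA3D differed by 2.69 ± 0.34 (limma adjusted p = 0.00299) and SEMA6A by -1.36 ± 0.17 (limma adjusted p = 0.00289) between 24 and 48 h. SEMA3D and SEMA6A at 48 h kept their calls without any 1 of the 8 libraries compared, as did SEMA3E at 48 h and SEMA3F at both times, whose differences rest on COLO858. With 0.1 FPKM added in place of 1, SEMA3F lost its call at both times and PLXNB3 and PLXNC1 theirs at 48 h. Without a minimum level the calls of PLXNB3 and PLXNC1 at 48 h were also lost. Median-ratio rescaling of the libraries ended the calls of NRP1 at 24 h and of NRP2 and PLXNB3 at 48 h. Without 1 library 1 or 2 members were called at 24 h, 4 or 5 at 48 h and 0 or 1 between 24 and 48 h, with 1.56% to 2.10%, 4.10% to 5.19% and 1.35% to 1.90% of all genes then called.

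No difference between the lines was called for PLXNB1, SEMA3C, SEMA6D or SEMA3B at 48 h. The estimates were -0.23 for PLXNB1 (95% interval -0.86 to 0.41), 0.26 for SEMA3C (-0.49 to 1.02), 0.79 for SEMA6D (0.18 to 1.40) and 2.38 for SEMA3B (0.83 to 3.94). The intervals of SEMA6D and SEMA3B did not include 0 although the adjusted p missed the threshold.

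**Figure D5:**
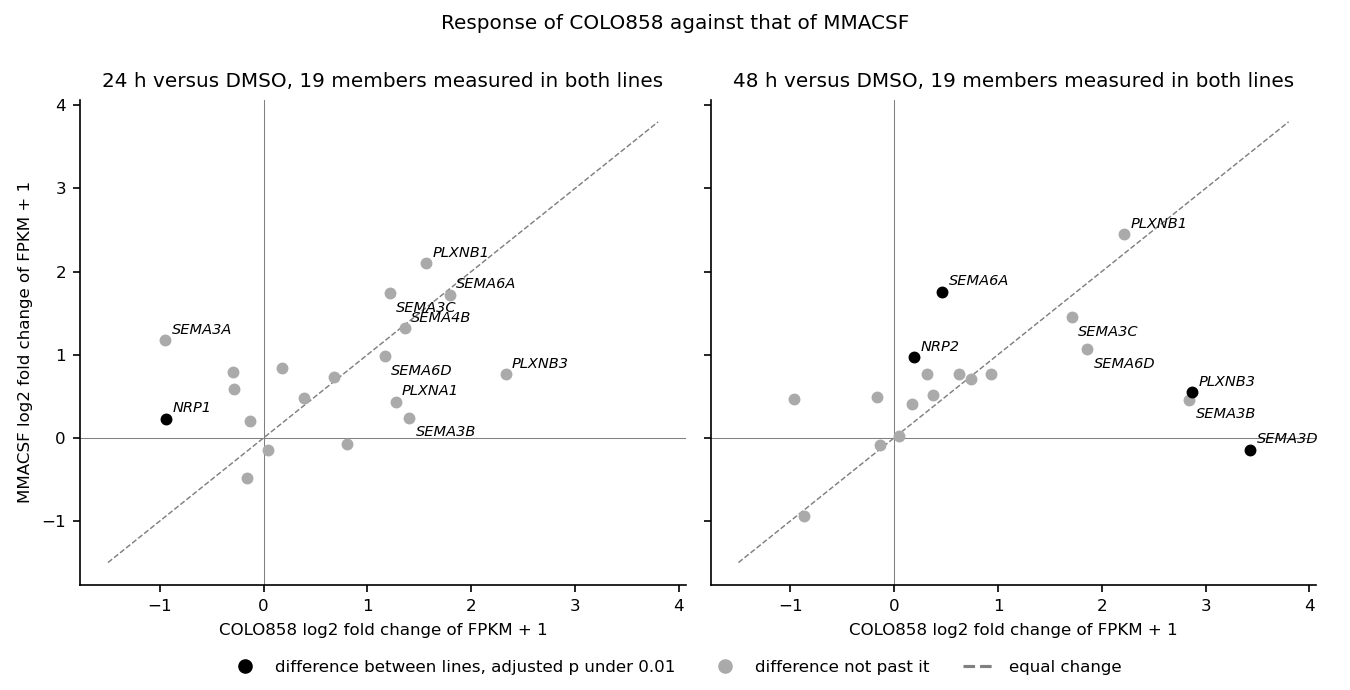
Log2 change of FPKM + 1 from DMSO in MMACSF (vertical axis) against that in COLO858 (horizontal axis) at 24 h (left) and 48 h (right), for the 19 members measured in both lines. Black points differ between the lines at an adjusted p under 0.01 and the dashed line marks equal change. At 48 h PLXNB1 and SEMA3C lie near it, and SEMA3D, PLXNB3, SEMA6A and NRP2 away from it.

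Partners of the members were read from lists written from general knowledge, but with earlier results of these data known. The paper itself names L1CAM among the genes that rose with drug in COLO858, so the lists are not independent of the data. Of 14 partner receptors 9 were tested in COLO858, where CHL1, ITGA1, L1CAM and MET rose at both times and 0 fell. CHL1, with a DMSO mean of 0.866 FPKM, passed the minimum only through drug groups. NRCAM, with 0.757 FPKM in DMSO, passed it only through 48 h and was not called. Of all genes tested there 4.11% rose and 5.71% fell at 24 h, and 4.74% rose and 4.73% fell at 48 h. ITGA1, part of the SEMA7A receptor, had 1.43 and 2.05 FPKM in DMSO and 19.2 and 23.7 FPKM at 48 h, a rise of 3.04 ± 0.22 (limma adjusted p = 0.00134). L1CAM, which joins NRP1 in SEMA3A signalling, had 31.0 and 24.8 FPKM in DMSO and 212 and 173 FPKM at 48 h, a rise of 2.74 ± 0.18 (limma adjusted p = 0.00115). The DMSO and drug libraries of both did not overlap. MET, which associates with PLXNB1, rose by 1.57 ± 0.23 at 48 h (limma adjusted p = 0.00863). In MMACSF 8 were tested, of which L1CAM (1.23 ± 0.17, limma adjusted p = 0.00793) and PTK7 (0.91 ± 0.12, limma adjusted p = 0.00721) rose and NRCAM (-1.42 ± 0.19, limma adjusted p = 0.0071) fell at 48 h, and 0 were called at 24 h, where 5 had an unadjusted p under 0.05. Of all genes tested in MMACSF 3.42% rose and 5.41% fell at 48 h, and 5.83% were called at 24 h. The share of all genes at an unadjusted p under 0.05 was not computed, so the 5 receptors cannot be set against it.

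Of 33 plexin effectors 29 were tested in COLO858, and MICAL2 and DPYSL5 fell at 24 h and MICAL2 at 48 h, with 0 rising. Of all genes tested in COLO858 5.71% fell at 24 h and 4.73% at 48 h, and 4.11% and 4.74% rose. MICAL2, an actin oxidase, had 7.77 and 7.61 FPKM in DMSO and 0.659 and 0.449 FPKM at 48 h, and fell by 2.49 ± 0.17 (limma adjusted p = 0.00127). In MMACSF 30 were tested, and DPYSL2, a mediator of SEMA3A signalling, rose by 1.45 ± 0.17 at 48 h (limma adjusted p = 0.00497) while LIMK2, a kinase of cofilin, fell by 0.90 ± 0.12 (limma adjusted p = 0.00737). At 24 h DPYSL2 alone was called. Of all genes tested in MMACSF 5.83% were called at 24 h and 8.83% at 48 h. Median changes over the effectors at 48 h were 0.20 in COLO858 and -0.05 in MMACSF, against -0.01 and 0.06 over all genes tested. Of the VEGF ligands, which share neuropilins with class 3 semaphorins, 4 were tested in COLO858 and 3 in MMACSF. In any comparison with DMSO limma called 0, with 1 to 3 at an unadjusted p under 0.05. For all genes the share at that level was not computed.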

How the data were processed

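RNA of COLO858 and MMACSF cells was sequenced from stranded mRNA libraries in a 50-base single-read run. The authors aligned reads to hg19 with TopHat and deposited FPKM from Cuffdiff, with 1 table per line. Annotation, versions, strand setting and library scaling are not given in the sources used here, and read depth is unknown. Of the deposited columns 12 were read, with 0 unused. For each line the model was fitted with limma 3.58.1 in R 4.3.3 on log2(FPKM + 1) with 3 groups and a mean-variance trend, over genes whose mean reached 1 FPKM in some group, two-sided, adjusted by Benjamini-Hochberg over all genes tested, with a threshold of 0.01. Differences between lines were an interaction over 12 libraries. Replicates are 2 plates, so p-values measure the spread between these samples, which may be technical. Called members are given with each library's value, others by range or change, and of each partner list the called genes with the largest rise and fall at 48 h and called partners of called members. The members and lists were chosen with earlier results of these data known. The fits were tested on simulated data. Alternatives were an added 0.1 FPKM, no minimum, a replicate block, median-ratio rescaling, no trend, only the groups compared, a threshold of 0.05, leaving out each library, and, chosen after seeing the data, a lowess correction for transcript G + C (86.3% of tested genes had a value). Gene coordinates and transcript G + C are from GENCODE v44 on GRCh37, computed with Python 3.11.15.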

Additional observations from a re-analysis of the deposited data

Results flagged for a closer look

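The changes of 12 member and time combinations differed between the lines by the interaction test in limma, given as COLO858 minus MMACSF on the log2 scale. At 24 h versus DMSO NRP1 differed by -1.17 and SEMA3F by -2.22. At 48 h versus DMSO SEMA3D differed by 3.57, SEMA3E by 2.32 and PLXNB3 by 2.32. In the other direction at 48 h were SEMA3F at -2.36, SEMA6A at -1.29, PLXNC1 at -1.27 and NRP2 at -0.78. SEMA3E, SEMA3F and PLXNC1 were near 0 in the other line and entered the test through 1 line alone, so for these the difference is that line's own change. Between 24 and 48 h NRP1 differed by 1.19, SEMA3D by 2.69 and SEMA6A by -1.36. Both NRP1 values missed the threshold with the G + C trend removed (limma adjusted p = 0.0138 and 0.0143). With 2 libraries per group no search for an outlying library was made.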

How the results depend on the processing

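No called value changed sign under any alternative, but leaving out each library in turn kept only 5 of 32 calls throughout and lost 27. Only the groups compared lost 8 of 20, no minimum 6 of 32, an added 0.1 FPKM 4, median-ratio rescaling 3, no trend 2, the G + C correction 2 and the replicate block 0. Same-numbered libraries deviated together, with correlations of 0.196 to 0.211 in COLO858 and 0.0628 to 0.113 in MMACSF over all genes, 0.754 to 0.780 and 0.595 to 0.684 without small RNA genes, and 0.884 to 0.924 and 0.830 to 0.952 over the members, but 2 numbers per group do not settle a pairing. With the replicate block the number of called members was 19, 18 and 14 in COLO858 (24 h, 48 h, 48 h versus 24 h), 9 and 10 in MMACSF (24 and 48 h) and 13, 13 and 9 for the line differences (24 h, 48 h, 48 h versus 24 h), in place of 4, 7, 1, 4, 4, 2, 7 and 3. The share of all genes called was then 45.0%, 43.7% and 17.96%, 26.1% and 30.1%, and 17.6%, 25.3% and 13.0%. SEMA3A (COLO858 at 48 h, MMACSF at 24 h) and PLXND1 (COLO858 at 48 h) were among those gained (limma adjusted p = 0.000703, 0.00157 and 0.00048). With the G + C correction, in the same order, the number of called members was 16, 15, 11, 12, 10, 11, 12 and 8. In MMACSF between 24 and 48 h 0 were called by limma under every alternative, with 1 at an unadjusted p under 0.05.

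Median-ratio rescaling gave 7 in COLO858 at 24 h, 2 between 24 and 48 h and 4 for the line difference at 24 h. The share of all genes called was then 11.9%, 2.21% and 4.39%. An added 0.1 FPKM gave 2 between 24 and 48 h in COLO858 and 1 and 4 for the line difference at 24 and 48 h. Of all genes 1.66%, 2.47% and 6.21% were called. Without a minimum 0 were called between 24 and 48 h in COLO858, where 0.472% of all genes were called. With only the groups compared the counts were 0 between 24 and 48 h in COLO858 and 1 and 2 in MMACSF at 24 and 48 h. Of all genes 0.283%, 1.89% and 4.64% were called. At an adjusted p under 0.05 they were 12, 12 and 3 in COLO858, 10 in MMACSF at 24 h and 7 for the line difference at 24 h. Leaving out 1 library gave 0 to 0, 0 to 1 and 0 to 0 in COLO858, 0 to 0 and 0 to 1 in MMACSF and 1 to 2, 4 to 5 and 0 to 1 for the line differences. Left with 1 library, a group is assumed to vary like the others. Depth is unknown, so its limit on members near 1 FPKM cannot be given.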
